A study of Mus musculus with 6 samples.

Results

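The genes of the proteasome subunits were examined in sorted hematopoietic stem cells (HSCs) of the mouse fetal liver. Every gene symbol made of Psma, Psmb, Psmc or Psmd and a number was taken, which gave 39 genes of the 38926 in the count lists. Of these, 38 passed the filter on low counts and were tested among 13646 genes. The remaining gene, Psmb11, had 0 counts in each of the 6 samples.

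The proteasome is the protease that degrades proteins tagged with ubiquitin. Its core particle is a barrel of outer alpha rings (Psma genes), which gate the entrance, and inner beta rings (Psmb genes), which hold the protease sites. A regulatory particle caps the barrel; its base contains a ring of ATPases (Psmc genes) that unfold the substrate, and its scaffolds, ubiquitin receptors and lid are encoded by Psmd genes. Cells exposed to interferon, and many blood cells, exchange the 3 standard catalytic subunits Psmb5, Psmb6 and Psmb7 for Psmb8, Psmb9 and Psmb10, which form the immunoproteasome and favour the cutting of peptides for class I antigen presentation. HSCs are known to make protein slowly and to depend on the quality control of their proteins.

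The cells came from E14.5 embryos. The product of Dpy30 is shared by the SET1/MLL enzyme complexes and is needed for their full methylation of histone H3 at lysine 4. Both groups carried Vav-Cre, a recombinase transgene driven by the blood-cell Vav promoter. The control genotype was Vav-Cre; Dpy30F/+ and the knockout genotype was Vav-Cre; Dpy30F/-, so the knockouts had 1 floxed and 1 null allele, and the controls, with 1 floxed and 1 wild-type allele, are heterozygous wherever Cre acted. Each of 3 litters gave 1 control and 1 knockout sample, and the sample numbers used here are the litter numbers. The labels speak of a sort by HSC surface markers but name neither these markers nor how many embryos were combined in a sample.

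Counts assigned to genes, in units of 1000000, were 35.6 to 43.4 in controls and 31.9 to 36.7 in knockouts. A tested proteasome gene had a median of 1258 counts in a sample, at which counting error alone gives an SD of 0.041 on the log2 scale. Dpy30 itself was at 24.2 to 31.6 counts per 1000000 counts (CPM) in controls and 5.95 to 13.7 CPM in knockouts. All 12 HSC and progenitor markers examined were detected, but not all in every sample: Ly6a had 0 counts in control 3. The summed level of these markers was 746 to 836 CPM in controls and 441 to 1090 CPM in knockouts, with the lowest value in knockout 3. Apart from Ly6a, Mllt3 and Gata2, each marker was also lowest in knockout 3. Mecom was at 11.57 CPM there and at 70.18 to 147.4 CPM in the other samples. Hlf was at 27.25 CPM there against 145.8 to 229.9 CPM, and Slamf1 at 0.5141 CPM against 6.587 to 15.65 CPM. Of 10 tested macrophage markers, 4 (C1qb, Csf1r, Cd68 and Lyz2) had an unadjusted p under 0.05 in edgeR with a higher level in the knockouts (background 4.26%) and 0 passed its adjusted threshold. DESeq2 called those 4, with adjusted p of 0.00231, 0.0169, 0.00536 and 0.0320. Mrc1 and Vcam1 had log2 fold changes of -0.07 and -0.13. The sum of all markers in this list was 294 to 587 CPM in controls and 325 to 1440 CPM in knockouts, with the highest value in knockout 3 and knockout 2 within the control range. Of the lymphoid markers, Cd3e, Cd3g and Ptprcap were at 0 in all samples, and the list's sum was 1.62 to 5.46 CPM in controls and 19.8 to 65.9 CPM in knockouts. Most of the latter came from Tcrg-C1 (6.48 to 50.04 CPM) and Nkg7 (1.08 to 14.1 CPM), both at or near 0 in the controls, while the B-cell gene Cd79b had a log2 fold change of -0.28. Erythroid markers summed to 1010 to 2140 CPM in controls and 965 to 2880 CPM in knockouts. The sums were 47.5 to 88.9 and 51 to 72.9 CPM for megakaryocyte markers, and 5.56 to 23.3 and 3.58 to 7.88 CPM for hepatocyte markers. Of 10, 6 and 5 tested markers in these lists, Slc4a1, Ppbp and Afp were lower (background 2.24%) and Pf4 higher (background 4.26%) at an unadjusted p under 0.05 in edgeR. None passed its adjusted threshold. The part of these other cells in the values below was not tested. In such bulk samples, fewer cells of a type and less RNA per cell cannot be told apart.

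The sequences before the transcription start are shown for Psmd6, which had the smallest p among the members, and for Psmb5, the standard subunit that Psmb8 replaces. Promoters of proteasome genes are known to carry antioxidant response elements, which the transcription factor Nfe2l1 binds when proteasome activity is short. The letters TGACNNNGC were searched on both strands, from 250 bases before to 50 after each RefSeq start (GRCm38.p6). They were found for 5 of the 32 member genes in that table (15.6%), beside 14% of all 27025 genes in it. A match is a description of the letters and does not show binding. Capitals mark the match, and the stretches are written 5′ to 3′ on the gene's strand.
Psmd6, chr14:14120985-14121195, minus strand, no match in its window: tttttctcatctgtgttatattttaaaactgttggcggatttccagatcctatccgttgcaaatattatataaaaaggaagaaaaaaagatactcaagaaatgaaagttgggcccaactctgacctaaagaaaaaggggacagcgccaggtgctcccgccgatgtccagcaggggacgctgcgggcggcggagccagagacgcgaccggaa
Psmb5, chr14:54618023-54618245, minus strand: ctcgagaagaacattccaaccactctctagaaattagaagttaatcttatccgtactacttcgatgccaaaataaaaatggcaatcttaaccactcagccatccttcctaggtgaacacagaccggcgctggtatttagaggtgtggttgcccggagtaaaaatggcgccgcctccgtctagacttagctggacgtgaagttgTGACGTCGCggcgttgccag

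The other 4 members with this match are shown with up to 10 bases on either side, because their own changes are given further on. In Psmc6 and Psmd12 the match lies on the opposite strand.
Psmb6, chr11:70525338-70525366, plus strand: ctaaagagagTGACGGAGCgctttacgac
Psmc6, chr14:45329587-45329615, plus strand: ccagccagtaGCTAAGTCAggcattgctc
Psmd9, chr5:123228149-123228177, plus strand: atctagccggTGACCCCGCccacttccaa
Psmd12, chr11:107479278-107479299, plus strand: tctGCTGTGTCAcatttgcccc

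The interferon-stimulated response element was searched in the same windows because interferon induces the replacement subunits. Searched as a pair of GAAA separated by 2 unspecified bases, it was found for Psmb3, Psmd4 and Psmd9 (9.38%, beside 3.99% of all genes).

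No proteasome subunit gene passed the test between knockout and control, and the most negative fitted changes were those of Psmd5, Psma8 and Psmd6. In edgeR's quasi-likelihood test, 0 of the 38 members had an adjusted p under 0.05, against a background of 0% of all tested genes. DESeq2 and limma-voom also called 0 members; DESeq2 called 253 of 14716 genes (1.72%), and 381 of 14010 (2.72%) with litter as a block. At an unadjusted p under 0.05, edgeR had 1 member lower, Psmd6 (background 2.24% of genes lower), and 0 members higher (background 4.26%). At that level DESeq2 had 3 members, beside 1784 of all genes, where 14716 genes had an adjusted p. Limma-voom had 3 members, beside 1008 of 13646 genes. The median log2 fold change, knockout over control, was -0.07 over the 38 members and 0.02 over all tested genes. The 95% intervals of the members had a median half-width of 0.85 on the log2 scale, so a smaller change in a single subunit was mostly not detectable here. These intervals are not adjusted for the number of genes, and larger changes could also go uncalled. The smallest edgeR adjusted p among all tested genes was 0.452. In DESeq2, Dpy30 itself had an adjusted p of 0.0432. In edgeR its log2 fold change was -1.55, with an edgeR adjusted p of 0.672. The lack of calls therefore does not show that the subunits were unchanged.

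No member reached a 2-fold change in the main fit. Their fitted log2 fold changes ranged from -0.98 (Psmd5) to 0.94 (Psmb8), so 0 of 38 reached 2-fold in either direction, where 26.4% of all tested genes did. Among genes with a mean of at least 5 CPM, which include 37 of the members, the shares were 0% of members and 15.1% of genes. The members are also more abundant than most genes, with a median of 36.9 CPM against 10.8 CPM. The direction was mixed, with 15 members above 0 and 23 below, beside 50.8% and 49.2% of all tested genes. Other fits did give changes beyond 2-fold. With litter as a block in edgeR, the log2 fold changes of Psma8, Psmb8 and Psmd5 were -2.551, 1.215 and -1.121. With limma-voom they were -2.924, 1.019 and -1.084. No share of all genes was computed for those fits.

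**Figure D1:**
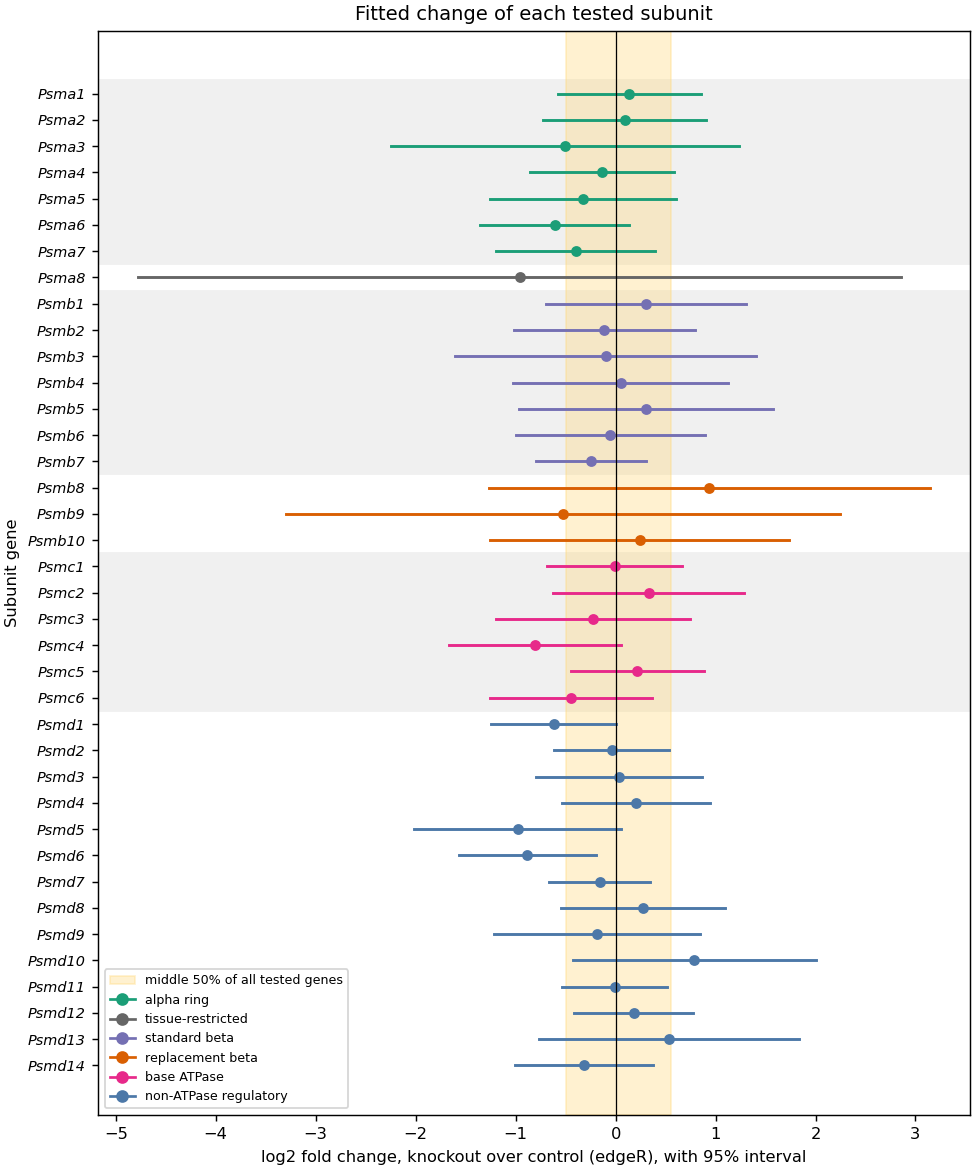
Fitted log2 fold change of each of the 38 tested subunit genes, knockout over control, on the x axis, with its 95% interval from edgeR; one row per gene, coloured by class, and the yellow band marks the middle 50% of all tested genes. Points lie between -0.98 (Psmd5) and 0.94 (Psmb8), and the interval of Psmd6 is the one that does not include 0.

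Within litters, more members were lower than higher. The knockout was below its litter's control in all 3 litters for 12 of 38 members (31.6%, background 16.1%): Psma3, Psma6, Psma7, Psmb7, Psmc4, Psmc6, Psmd1, Psmd5, Psmd6, Psmd7, Psmd9 and Psmd14. It was above in all 3 litters for 0 members (background 12.3%). For 4 members, Psma7, Psmd1, Psmd5 and Psmd6, every knockout was below every control (10.5%, background 7.74%), and for 0 members every knockout was above (background 6.39%). The count of 4 stayed at 4 without control 1 (background 12.5%). It became 6 without control 3 (background 11.9%) or without knockout 3 (background 12.5%). It became 9 without control 2 (background 11.7%) or without knockout 1 (background 18.2%) and 8 without knockout 2 (background 15.3%). Members with every knockout above then numbered 5 without knockout 1 and 2 without knockout 3. They numbered 1 without control 2 or control 3, and 0 without control 1 or knockout 2. For these counts above, no share of all genes was computed. With scaling by library size only, the median of all genes moved from 0.02 to 0.23 and that of the members from -0.07 to 0.14. Psmd6 was then the 1 member with every knockout below, and another member had every knockout above. No share of all genes was computed for that scaling, so these counts have no background.

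**Figure D2:**
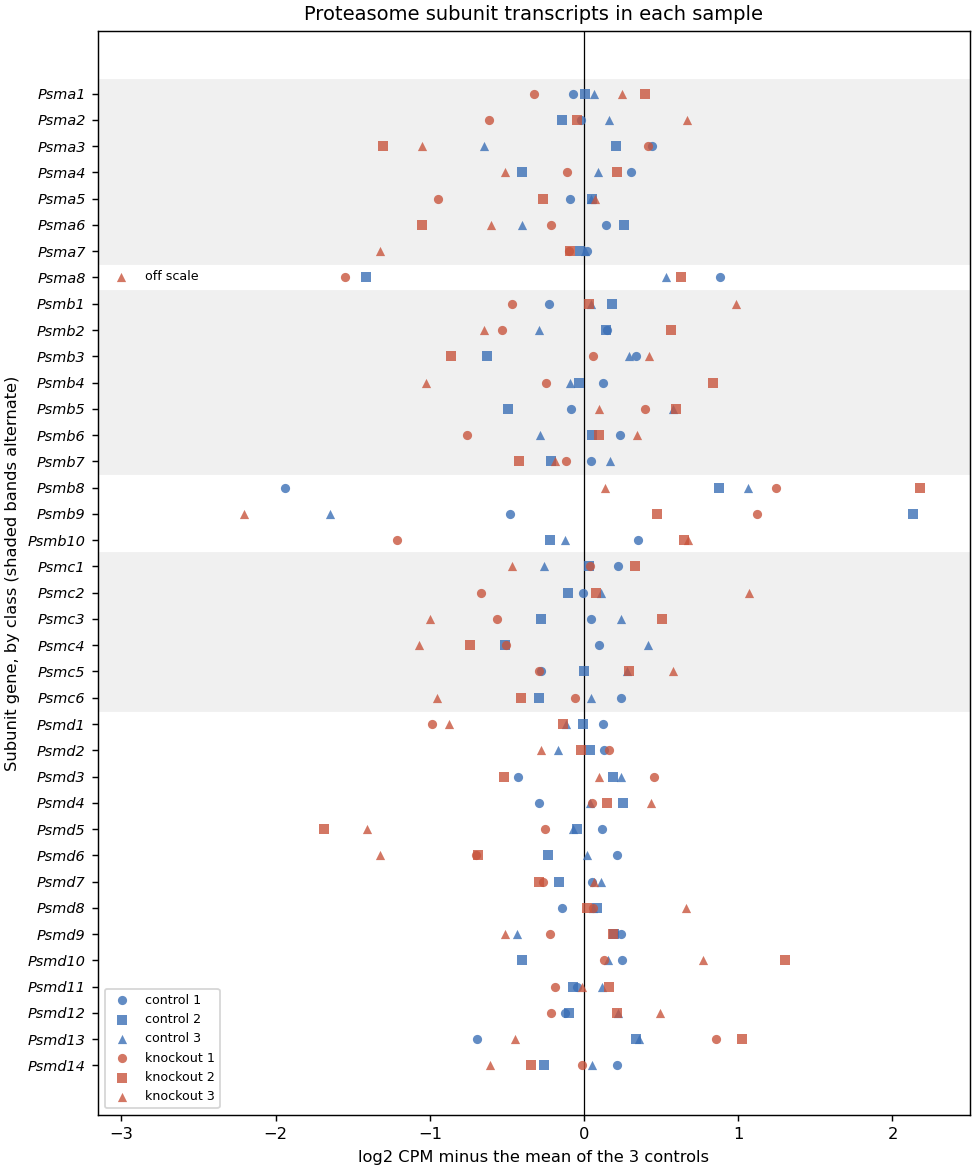
Log2 CPM of each tested subunit gene in each of the 6 samples, minus the mean of the 3 controls (x axis); one row per gene, blue for controls and red for knockouts, with circles, squares and triangles for litters 1, 2 and 3. Controls sit near 0 for most genes, the red points spread to both sides, and knockout 3 of Psma8, at -6.18, is drawn at the left edge.

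In the alpha ring, the summed level of the 7 standard subunits was lower in the knockouts. It was 336, 312.8 and 312.4 CPM in controls 1 to 3 and 265.2, 289.1 and 266.3 CPM in knockouts 1 to 3, so the groups did not overlap. The knockout mean was 0.854 times the control mean (273.5 ± 13.5 against 320.4 ± 13.5 CPM; SD over 3 samples each). With counts scaled by library size only, that ratio was 0.987 and the groups overlapped. The median log2 fold change of the class was -0.32, with 5 of 7 members below 0 and 0 of 7 past the test.

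Psma6 (chromosome 12), the alpha subunit with the second highest level per kilobase of exon among all members in controls, had the smallest p of the ring. It measured 68.6, 74.4 and 46.8 CPM in controls 1 to 3 and 53.5, 29.9 and 40.8 CPM in knockouts 1 to 3. The knockout was lower within each litter, although knockout 1 lay above control 3. On the log2 scale the fitted change was -0.61 (SE 0.322; edgeR adjusted p = 0.797). Psma7 (chromosome 2, 180036374 to 180042433) encodes an alpha subunit for which Psma8 substitutes in testis. It was almost constant in controls, at 85.2, 82.6 and 84.7 CPM, and was 78.8, 79.0 and 33.6 CPM in knockouts. Its knockouts all lay below its controls, but by a small margin except in knockout 3. The log2 fold change of -0.40 (edgeR adjusted p = 0.887) became -0.08 without knockout 3.

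Psma3 was the least abundant standard alpha subunit, at 10.5, 8.88 and 4.90 CPM in controls 1 to 3 and 10.3, 3.09 and 3.68 CPM in knockouts 1 to 3. Its log2 fold change was -0.51 (edgeR adjusted p = 0.944), and the groups overlapped. A share of 15.4% of its 50-base stretches also occurs in transcripts of other genes, and reads that align to more than 1 place were not counted, so its level may be underestimated. For Psma5 that share was 50% and for Psma4 14.3%. The remaining alpha subunits Psma1, Psma2, Psma4 and Psma5 had log2 fold changes between -0.32 and 0.14.

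Psma8 and Psmb11 are known for other tissues, Psma8 for the testis and Psmb11 for cortical cells of the thymus. The counts of Psma8 were 208, 53 and 247 in the controls of litters 1 to 3, and 51, 218 and 0 in the knockouts of the same litters. It was thus low and irregular in both groups, with a log2 fold change of -0.96 and a 95% interval from -4.78 to 2.86. The 0 counts of Psmb11 allow levels of up to that of 3 counts per library, 0.0680 to 0.104 CPM in controls and 0.0755 to 0.0857 CPM in knockouts. This limit covers counting error only.

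In the standard beta ring, the summed level of the 7 subunits overlapped between the groups, at 228.3, 209 and 218.2 CPM in controls 1 to 3 and 178.2, 249.5 and 208.2 CPM in knockouts 1 to 3. The median log2 fold change was -0.05, with 3 members above 0 and 4 below. Psmb7, the subunit with the trypsin-like site, measured 74.6, 62.6 and 81.5 CPM in controls 1 to 3 and 66.75, 54.15 and 63.5 CPM in knockouts 1 to 3. It was lower in each litter, by 0.16 to 0.36 on the log2 scale, with overlapping groups (log2 fold change -0.25, SE 0.238; edgeR adjusted p = 0.901).

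Psmb6, which carries the caspase-like site, was at 28.0, 24.8 and 19.6 CPM in controls 1 to 3 and 14.1, 25.5 and 30.3 CPM in knockouts 1 to 3. It had no common direction in the 3 litters (log2 fold change -0.05, 95% interval -0.996 to 0.892). Psmb5, which carries the chymotrypsin-like site, was at 8.18, 6.15 and 12.9 CPM in controls 1 to 3 and 11.4, 13.1 and 9.25 CPM in knockouts 1 to 3. Its log2 fold change was 0.31 (95% interval -0.96 to 1.58), and the groups overlapped. For Psmb5, 54.1% of the 50-base stretches also occur in other genes' transcripts, the highest share among the members, so its counts rest on a part of its sequence.

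The structural subunits of the ring differed from sample to sample. Psmb1 was at 21.7, 28.7 and 26.2 CPM in controls 1 to 3 and 18.3, 25.9 and 50.3 CPM in knockouts 1 to 3, with knockout 3 alone well above the rest (log2 fold change 0.30, and -0.20 without knockout 3). Psmb4 was at 39.7, 35.65 and 34.2 CPM in controls 1 to 3 and 30.75, 65.0 and 17.9 CPM in knockouts 1 to 3. Knockout 2 was thus above and knockout 3 below all controls for the same subunit. Psmb2, the most abundant of the ring per kilobase, had a log2 fold change of -0.11 with 46.2, 46.1 and 34.1 CPM in controls 1 to 3 and 28.8, 61.6 and 26.6 CPM in knockouts 1 to 3. Psmb3, the least abundant per kilobase, was at 5.03 to 9.88 CPM in controls and 4.27 to 10.5 CPM in knockouts (log2 fold change -0.10). A share of 17.8% of its 50-base stretches also occurs in other genes' transcripts, so its level may be underestimated.

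The 3 replacement subunits of the immunoproteasome were present at low levels in both groups and did not separate them. Their sum was 15.3, 31.0 and 16.4 CPM in controls 1 to 3 and 20.1, 34.5 and 19.1 CPM in knockouts 1 to 3, with the highest value in litter 2 in both groups. Per kilobase, Psmb8 and Psmb9 were among the 3 least abundant detected members in controls, at 1.33 and 1.93 CPM per kilobase. Psmb8, Psmb9 and Psmb10 had log2 fold changes of 0.94, -0.53 and 0.24, with no common direction.

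Psmb8 (chromosome 17, 34197721 to 34201454), which replaces Psmb5, was at 0.794, 5.91 and 6.74 CPM in controls 1 to 3 and 7.65, 14.6 and 3.51 CPM in knockouts 1 to 3. Knockouts 1 and 2 were above all controls and knockout 3 was not (edgeR adjusted p = 0.907; 95% interval -1.27 to 3.15). The count of Psmb8 relative to that of Psmb5 does not depend on library scaling. In controls 1 to 3 it came to 9.7%, 96.1% and 52.1%, and in knockouts 1 to 3 to 67.1%, 112% and 38%. These shares, and those of the other pairs below, are of raw counts and are not corrected for exon length (3381 bases for Psmb8 and 899 for Psmb5). Per kilobase, the means were 1.33 CPM for Psmb8 and 10.1 CPM for Psmb5 in controls, and 2.54 and 12.5 CPM in knockouts. The mean log2 ratio was higher in the knockouts by 0.84, less than the SD of 1.70 among the controls (two-sided exact permutation p = 0.6, adjusted over 3 pairs 0.9, n = 3 each). Without control 1, which was the lowest, the difference was -0.10.

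Psmb9 (chromosome 17, 34181987 to 34187764), which replaces Psmb6, was the most variable member in controls, at 2.76, 17.2 and 1.20 CPM, and was 8.50, 5.40 and 0.80 CPM in knockouts 1 to 3. The order of the samples differed from that for Psmb8, with control 2 highest and knockout 3 lowest. The log2 fold change of -0.53 (edgeR adjusted p = 0.967) turned to 1.32 without control 2. Relative to Psmb6, the count of Psmb9 came to 9.85%, 69.4% and 6.13% in controls 1 to 3. In knockouts 1 to 3 it came to 60.4%, 21.2% and 2.64%. The mean log2 ratio differed by -0.10 (two-sided exact permutation p = 0.9, adjusted 0.9, n = 3 each), by 0.95 without control 2 and by 1.14 without knockout 3.

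Psmb10 (chromosome 8, 105935735 to 105938444), which replaces Psmb7, was the most even of the 3 in controls, at 11.7, 7.89 and 8.46 CPM. It was 3.95 CPM in knockout 1 and 14.8 CPM in knockout 3, with knockout 2 just under the latter, so knockout 1 was below and the other two were above all controls. Its count relative to Psmb7 came to 15.7%, 12.6% and 10.4% in controls 1 to 3. The same share in knockouts 1 to 3 was 5.92%, 26.8% and 23.3%. The log2 difference of 0.28 was smaller than the SD of 1.20 among the knockouts (two-sided exact permutation p = 0.8, adjusted 0.9, n = 3 each), and it was -0.12 without knockout 2 and -0.015 without knockout 3. With 3 samples against 3, the smallest p this test can give is 0.1.

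**Figure D3:**
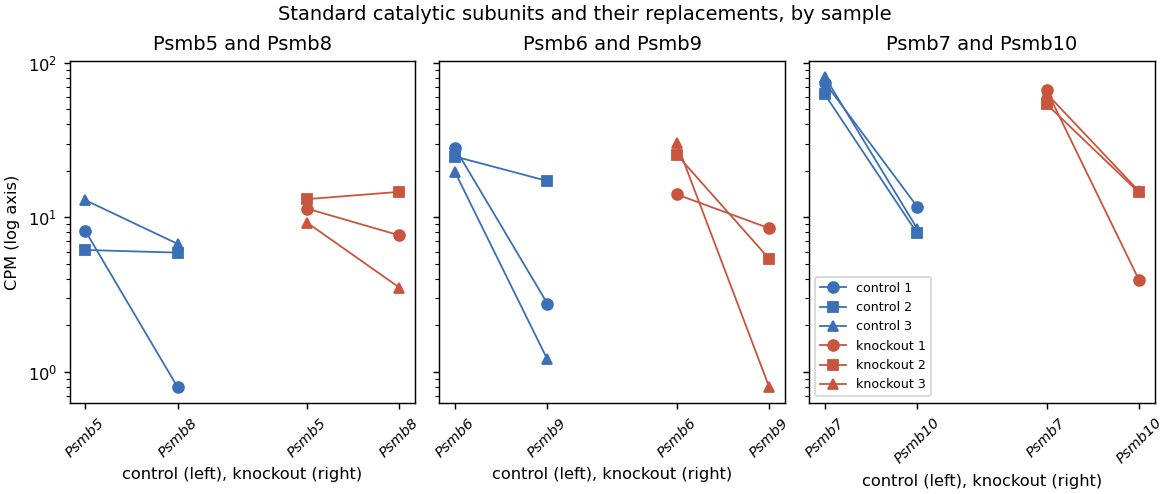
CPM (log axis) of each standard catalytic subunit and the subunit that replaces it, joined by a line for each sample; controls in blue on the left and knockouts in red on the right of each panel, with circles, squares and triangles for litters 1, 2 and 3. Psmb8 and Psmb9 vary widely in both groups, and the CPM of Psmb8 equals or exceeds that of Psmb5 in 1 sample, knockout 2. These CPM are not corrected for exon length.

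Genes that work with the immunoproteasome in class I presentation were considered next. Of 13 such genes, 0 had an adjusted p under 0.05 in edgeR; 3 had an unadjusted p under 0.05, all higher (background 4.26%), and their median log2 fold change was 0.59. B2m, the light chain of class I molecules, was at 200, 201 and 165 CPM in controls 1 to 3 and 280, 314 and 501 CPM in knockouts 1 to 3 (log2 fold change 0.95, SE 0.264; edgeR adjusted p = 0.644). Tapbp, which loads peptides, and Tap1, a peptide transporter, also had every knockout above every control, with log2 fold changes of 1.38 and 1.84 (edgeR adjusted p = 0.721 and 0.753). In the same list, Canx, a chaperone of newly made class I chains, had every knockout below every control (log2 fold change -0.41; edgeR adjusted p = 0.795), and the log2 fold changes of the class I gene H2-K1 and of Tap2, the partner of Tap1, were -0.35 and -0.19. Tap1 is the neighbour of Psmb9, and 5.79% of the exon bases of Psmb9 overlap exons of Tap1. Tap1 was highest in knockout 3 at 33.2 CPM, the sample in which Psmb9 was lowest. B2m is also abundant in macrophages, for which 4 of 10 markers were higher in the knockouts at an unadjusted p under 0.05 as given above; the part of those cells was not tested.

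In the base of the regulatory particle, the 6 ATPases had a median log2 fold change of -0.12 and mean summed levels of 334 ± 31.6 CPM for the controls and 332.5 ± 58.5 CPM for the knockouts (SD over 3 samples each). Psmc4 had the smallest p of the ring, at 37.4, 24.5 and 46.5 CPM in controls 1 to 3 and 24.6, 20.9 and 16.6 CPM in knockouts 1 to 3. It was lower in each litter, with knockout 1 just above control 2 (log2 fold change -0.80, SE 0.374; edgeR adjusted p = 0.775). Psmc6 was also lower in each litter, at 43.8, 30.3 and 38.2 CPM in controls 1 to 3 and 35.6, 27.8 and 19.1 CPM in knockouts 1 to 3 (log2 fold change -0.45; edgeR adjusted p = 0.877).

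Psmc5 was the most abundant member per kilobase in controls, at 63.7 CPM per kilobase. It measured 72.2, 87.7 and 106 CPM in controls 1 to 3 and 71.5, 107 and 131 CPM in knockouts 1 to 3, and its order across litters was the same in both groups (log2 fold change 0.22, edgeR adjusted p = 0.933). Psmc2 and Psmc3 moved in opposite directions in knockout 3, although the ring holds their products in equal number. Psmc2 was at 59.35 to 68.8 CPM in controls and at 40.0, 67.3 and 134 CPM in knockouts 1 to 3. Psmc3 was at 38.2 to 54.7 CPM in controls and at 31.4, 66.0 and 23.2 CPM in knockouts 1 to 3. The log2 fold changes of 0.33 for Psmc2 and -0.22 for Psmc3 both changed sign without knockout 3.

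The 14 Psmd genes encode the rest of the regulatory particle and some of its assembly chaperones. Their summed level was 777.7, 735.1 and 775.2 CPM in controls 1 to 3 and 634, 704.4 and 655.3 CPM in knockouts 1 to 3. The knockouts were all lower, at 0.871 times the control mean, but the ratio was 1.00 with overlapping groups with scaling by library size only. It was 0.882 with DESeq2's size factors and 0.801 with upper-quartile scaling, without overlap. The median log2 fold change was only -0.02, with 6 members above 0 and 8 below, and the largest differences in mean CPM were those of Psmd1, Psmd6 and Psmd5.

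Psmd6 (chromosome 14, 14112174 to 14120984), a subunit of the lid, was at 70.6, 51.7 and 61.8 CPM in controls 1 to 3 and 37.5, 37.8 and 24.3 CPM in knockouts 1 to 3. Every knockout was below every control, and the knockout was lower by 0.91, 0.45 and 1.34 in log2 CPM in the 3 litters. The log2 fold change was -0.89 (SE 0.298; 95% interval -1.57 to -0.20; edgeR unadjusted p = 0.0176, adjusted p = 0.721). It kept its sign in 17 of 17 alternatives, between -0.99 and -0.64, and their adjusted p ranged from 0.166, with DESeq2, to 1. No 50-base stretch of Psmd6 occurs in the transcripts of another gene, and its exons overlap none.

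The 8 lid genes had no common direction, with a median log2 fold change of 0.01, 4 genes above 0 and 4 below. Psmd14, the deubiquitinase that removes the ubiquitin tag, was at 38.5 to 53.5 CPM in controls and 30.3 to 45.7 CPM in knockouts, lower in each litter (log2 fold change -0.32; edgeR adjusted p = 0.901). Psmd7, which pairs with Psmd14 and was the most abundant lid gene per kilobase, was at 111, 95.6 and 116 CPM in controls 1 to 3 and 88.9, 87.3 and 112 CPM in knockouts 1 to 3 (log2 fold change -0.16; 95% interval -0.67 to 0.34). Psmd13 varied most within the lid, at 6.84 to 14.2 CPM in controls and 8.11 to 22.6 CPM in knockouts (log2 fold change 0.53; 95% interval -0.77 to 1.84). The lid genes Psmd3, Psmd8, Psmd11 and Psmd12 had log2 fold changes from -0.01 to 0.27.

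Psmd1 (chromosome 1, 86064387 to 86139151), the large scaffold of the base, had the highest mean CPM of all members in both groups. It measured 190, 173.5 and 161 CPM in controls 1 to 3 and 88.2, 158.5 and 95.2 CPM in knockouts 1 to 3. The knockouts were all lower, with knockout 2 close to control 3, but with DESeq2's size factors or library size only the groups overlapped (log2 fold change -0.62, SE 0.272; edgeR adjusted p = 0.772). Exons of Gm21972 and Htr2b overlap 7.61% of its exon bases. The other large scaffold, Psmd2, and the ubiquitin receptor Psmd4 had log2 fold changes of -0.04 and 0.20.

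Psmd5, Psmd9 and Psmd10 encode chaperones that help to assemble the base and then leave it. Psmd5 (chromosome 2, 34849734 to 34874968) was at 38.0, 33.8 and 33.2 CPM in controls 1 to 3 and 29.3, 10.8 and 13.1 CPM in knockouts 1 to 3. Every knockout was below every control, with the larger gaps in litters 2 and 3 (log2 fold change -0.98, SE 0.450; edgeR adjusted p = 0.775). With litter as a block, Psmd5 and Psmd6 were the 2 members at an unadjusted p under 0.05 (0.0458 and 0.0344; background 4.54%), and both had an edgeR adjusted p of 0.953.

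The other chaperones differed in direction. Psmd9, the least abundant Psmd gene per kilobase, was at 19.0, 18.35 and 11.8 CPM in controls 1 to 3 and 13.8, 18.3 and 11.2 CPM in knockouts 1 to 3. It was lower in each litter but nearly equal in litters 2 and 3 (log2 fold change -0.18). Exons of Gm26745 overlap 25.5% of the exon bases of Psmd9. A share of 24.9% of its 50-base stretches also occurs in other genes' transcripts, so its level per kilobase may be underestimated. Psmd10 was at 10.4, 6.63 and 9.80 CPM in controls 1 to 3 and 9.61, 21.7 and 15.0 CPM in knockouts 1 to 3 (log2 fold change 0.79; 95% interval -0.42 to 2.00).

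**Figure D4:**
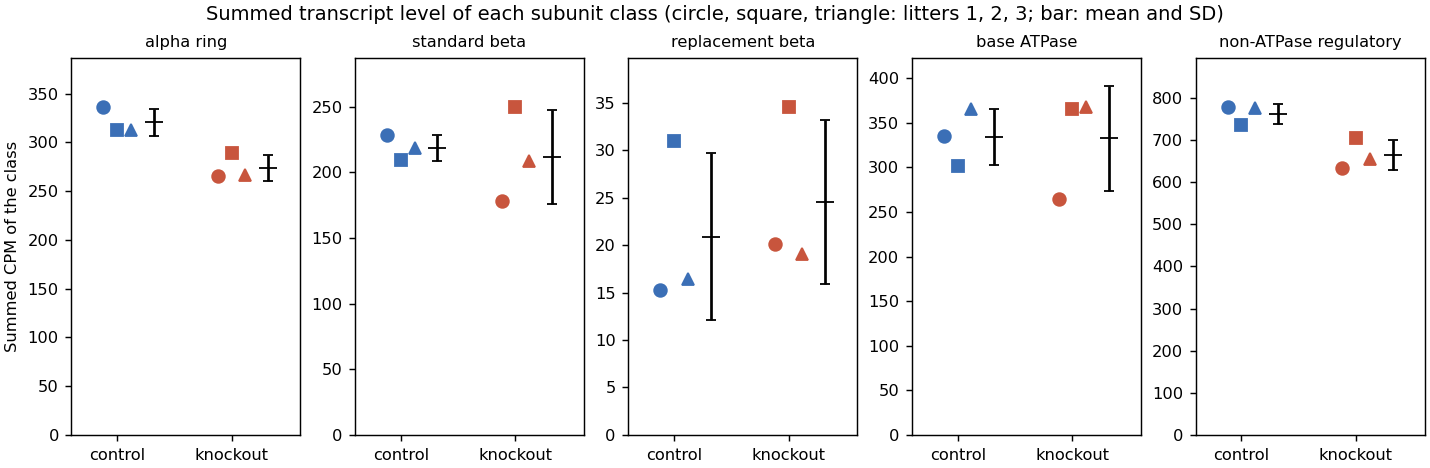
Summed CPM of each subunit class (y axes from 0) in controls (blue) and knockouts (red), 1 point per sample with circles, squares and triangles for litters 1, 2 and 3, and the mean with SD in black. The alpha ring (312.4 to 336 against 265.2 to 289.1 CPM) and the non-ATPase regulatory class (735.1 to 777.7 against 634 to 704.4 CPM) do not overlap, and the other classes do.

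The spread between replicates was wider among the knockouts, for the members as for genes in general. The SD of log2 CPM among replicates had a median over the 38 members of 0.26 in controls and 0.47 in knockouts, and it was larger in the knockouts for 31 of 38 members (81.6%, background 75.2%). The corresponding medians over all tested genes were wider, 0.49 in controls and 0.89 in knockouts. Knockout 3 gave the lowest or the highest of the 6 values for 25 of 38 members (65.8%, background 54.8%), with the lowest for 14 (36.8%, background 29.1%) and the highest for 11 (28.9%, background 25.6%). Control 3 gave the lowest value for 0 members (background 9.1%) and the highest for 3 (background 12.8%). Knockouts 2 and 3 had 14674 and 13972 genes with at least 1 count, knockout 1 had 16857, and the controls had 16149 to 17241. The part of this difference between libraries in the spread was not tested.

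**Figure D5:**
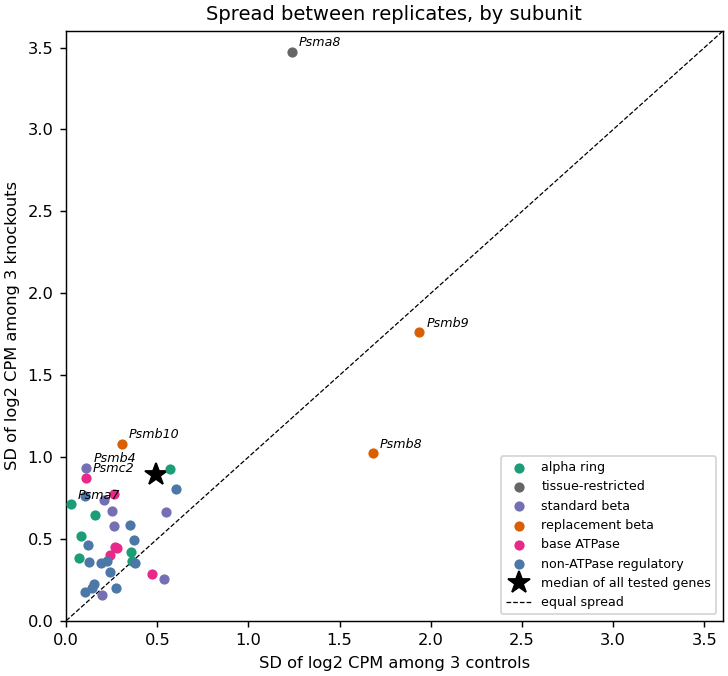
SD of log2 CPM among the 3 controls (x axis) and among the 3 knockouts (y axis) for each tested subunit gene, coloured by class; the star is the median of all tested genes (0.49 and 0.89) and the dashed line marks equal spread. Most members lie above the line and nearer the origin than the star, while Psmb8 and Psmb9 stand out in the controls and Psma8 in the knockouts.

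Genes that assemble, activate or regulate the proteasome were also listed. Of 15 tested genes for activators, assembly factors and associated proteins, 0 had an adjusted p under 0.05 in edgeR; 1 had an unadjusted p under 0.05, lower (background 2.24%), and their median log2 fold change was -0.01. That gene was Psmg1, a chaperone of alpha ring assembly, at 27.8, 8.32 and 18.5 CPM in controls 1 to 3 and 7.85, 4.05 and 2.31 CPM in knockouts 1 to 3. Every knockout was below every control (log2 fold change -1.94, SE 0.701; edgeR adjusted p = 0.729). Pomp, the chaperone of beta ring maturation, was at 76.9 to 86.3 CPM in controls and 48.2 to 84.8 CPM in knockouts (log2 fold change -0.28; edgeR adjusted p = 0.901).

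Psme1 and Psme2 encode the interferon-inducible cap that can replace the regulatory particle. Psme1 was at 84.1 to 89.2 CPM in controls and 94.1 to 103.5 CPM in knockouts, with every knockout above every control (log2 fold change 0.20; edgeR adjusted p = 0.904). Psme2 was at 5.27 to 6.70 CPM in controls and 8.50, 3.58 and 75.8 CPM in knockouts 1 to 3, with knockout 3 far above the other 5 samples (log2 fold change 2.33; edgeR adjusted p = 0.775). A share of 28.3% of its 50-base stretches also occurs in Psme2b.

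Of the 9 genes listed as regulators of proteasome genes, 0 had an adjusted p under 0.05 in edgeR, and 1 had an unadjusted p under 0.05, higher (background 4.26%). That gene was Nfe2l1, the factor that raises proteasome gene transcription when proteasome activity is short. It was at 45.4, 77.4 and 49.4 CPM in controls 1 to 3 and 76.8, 89.4 and 192 CPM in knockouts 1 to 3, higher in each litter, with knockout 1 just below control 2 (log2 fold change 1.06, SE 0.402; edgeR adjusted p = 0.733). The 5 members with TGACNNNGC in their promoter window, Psmb5, Psmb6, Psmc6, Psmd9 and Psmd12, had log2 fold changes of 0.31, -0.05, -0.45, -0.18 and 0.18.

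Among 14 ubiquitin and shuttle genes, 0 had an adjusted p under 0.05 in edgeR, 1 had an unadjusted p under 0.05, higher (background 4.26%), and their median log2 fold change was 0.11. Ubqln1, which carries tagged proteins to the proteasome, was at 38.5 to 51.6 CPM in controls and 51.4, 107 and 130 CPM in knockouts 1 to 3. Knockout 1 was within the control range (log2 fold change 1.05, SE 0.360; edgeR adjusted p = 0.721).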

How the data were processed

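RNA of sorted fetal liver HSCs was sequenced in 3 control and 3 Dpy30 knockout samples, grouped by the genotype label. The authors deposited raw read counts per gene symbol, 1 list per sample. The submitters' processing notes name CASAVA 1.8.4, TopHat2, Picard 1.126, HTSeq 0.6.0, DESeq 3.0, bedtools 2.17.0 and build mm10, without their roles; annotation, read length and strandedness are not given in the sources used here. The 5 closing tallies of reads given to no gene (41% to 51% of all reads; 13.4% to 18.3% aligned to more than 1 place) were left out of library sizes and tests, so genes with near-identical copies have uncertain counts.

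Genes were kept with filterByExpr by group. Genotype was tested by the quasi-likelihood F test of edgeR 4.0.16 (R 4.3.3) on TMM-scaled counts, Benjamini-Hochberg adjusted over all 13646 genes, threshold 0.05. CPM use TMM factors; log2 CPM use a prior count of 2. Standard errors were derived from each gene's change and F value, and 95% intervals use the matching t quantile. Samples of a genotype come from different litters, per the labels. Ratios of replacement to standard subunits add 0.5 counts and were compared by exact permutation. DESeq2 1.42.0, on genes not filtered beforehand, and limma 3.58.1 served as alternatives. Litters, given in the labels, pair the samples; the correlations of the deviations of same-litter samples from the genotype means were -0.02, -0.07 and 0.00, and the blocked fit called 0 genes. The procedure was tested on simulated data.

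Positions, exon lengths for levels per kilobase, overlaps and shared 50-base stretches come from GENCODE M21 (GRCm38, which is mm10), whose symbols matched all 39 members. Promoters come from RefSeq GRCm38.p6 and were found for 32 members; Psma8, Psmb1, Psmb2, Psmb7, Psmc3, Psmd3 and Psmd7 had no entry. One further promoter motif that was searched is not reported here. The printed stretches of Psmd6 and Psmb5 were cut where the GENCODE gene begins. The shorter stretches were not cut in this way. That of Psmd9 lies inside its GENCODE gene (chromosome 5, 123169413 to 123250131). The members and lists were chosen with earlier results of these data known. Values in every sample are given for the catalytic subunits and their replacements, for members with an unadjusted p under 0.05, and in each class for the 2 members with the smallest p, the 2 with the largest change and the highest and lowest per kilobase. Psma8, Psmb4, Psmc2, Psmc3, Psmd10 and Psmd13 were added after their values were seen.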

Additional observations from a re-analysis of the deposited data

How the results depend on the processing

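The count of proteasome genes past the threshold was 0 in the main test and in all 17 alternatives, with 0 to 4 members at an unadjusted p under 0.05. Upper-quartile scaling had 4 such members, beside 843 of 13646 genes. Without knockout 1 there were 3, beside 1796 of 14407 genes. Library size only had 0, beside 964 of 13646 genes. The count over all genes was 0 in edgeR, 253 with DESeq2, 381 in DESeq2 with litter as a replicate block (added after the data were seen, as was limma-voom with sample quality weights), and 1 each without a filter on low counts and with at least 10 counts in every sample. With the replicate block in edgeR it was 0, and the class medians were -0.38 for the alpha ring, -0.13 for the standard beta ring, 0.08 for the replacement subunits, -0.20 for the ATPases and -0.03 for the Psmd genes; the block changed no call. Under library size only, the class medians were 0.187 for the Psmd genes, 0.154 for the standard beta ring and 0.088 for the ATPases, all 3 with changed sign, -0.167 for the alpha ring and 0.413 for the replacement subunits.

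Leaving out one sample at a time gave medians of -0.20 to 0.19 for the standard beta ring, -0.012 to 1.20 for the replacement subunits (highest without control 2), -0.33 to -0.13 for the alpha ring, -0.33 to -0.05 for the ATPases and -0.13 to 0.01 for the Psmd genes. The log2 ratio differences then ran from -0.10 to 1.53 for Psmb8 over Psmb5, -1.10 to 1.14 for Psmb9 over Psmb6 and -0.12 to 0.97 for Psmb10 over Psmb7.

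Of 441 recomputed log2 fold changes of the named members, 413 kept their sign, 27 changed it and 1 was 0. Psmb4 was -0.152 with the replicate block, -0.129 with limma-voom, -0.043 with upper-quartile scaling, -0.132 in DESeq2 with the block and -0.017 with sample quality weights. With those weights Psmb1 was -0.069, Psmb10 -0.220, Psmb9 0.212 and Psmc2 -0.104. Under library size only, Psmb2 was 0.072, Psmb3 0.154, Psmb6 0.133, Psmd7 0.044 and Psmd9 0.034. Leaving out one sample gave -0.197 to 0.573 for Psmb1, -0.605 to 0.111 for Psmb2, -0.382 to 0.189 for Psmb3, -0.587 to 0.401 for Psmb4, -0.276 to 0.206 for Psmb6, -1.176 to 1.319 for Psmb9, -0.012 to 0.642 for Psmb10, -0.239 to 0.652 for Psmc2 and -0.781 to 0.065 for Psmc3. Apart from the changes by construction of leaving out a sample, the cause was not tested. Psma8 had no value with at least 10 counts in every sample. Of the tested members, counts were lowest for Psma8, at 0 to 247 a sample, where counting error is largest.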

Other observations

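Psmc3ip, whose symbol begins like that of the ATPase Psmc3 but which encodes a partner protein in meiotic recombination and not a proteasome subunit, was singled out after its values were seen. Its counts were 237, 542 and 490 in the 3 controls and 149, 55 and 122 in the 3 knockouts, and in CPM every knockout was below every control (log2 fold change -1.95; edgeR adjusted p = 0.729, DESeq2 adjusted p = 0.0440). Psme2b, a copy of the activator gene Psme2, was at 11.8 to 16.8 CPM in controls and at 21.3, 4.52 and 290.5 CPM in knockouts 1 to 3. It shares 69.3% of its 50-base stretches with transcripts of other genes, and, as for Psme2, knockout 3 was far above the other samples.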
